A study of Mus musculus with 4 samples.

Results

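The transcription factors that build the myeloid lineage and set the state of macrophages were measured in macrophages that lack Pparg and in wild-type macrophages. The 9 genes were Spi1, Cebpa, Cebpb, Cebpd, Runx1, Maf, Klf2, Klf4 and Bcl6, taken as every probe set that the platform annotation assigns to one of them alone, out of 7577 genes with values. The annotation lists 10 such probe sets, and the 9 with values, 1 for each gene, are described. The other Klf4 probe set was blank on all arrays and was not analysed here.

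Peritoneal macrophages drawn out by thioglycollate, an irritant, came from Pparg knockout (KO) mice and from wild-type (WT) mice, whose strain label names a mix of 129/SV with C57BL/6. Cells lavaged 3 days after the injection were plated, washed 5 h later and cultured for another 24 h at 0.5% serum, with no ligand or stimulus named. Each genotype had 2 arrays, KO replicates 1 and 2 and WT replicates 1 and 2, on a 1-colour Affymetrix platform. The labels state neither how the knockout was made, nor the age of the mice, nor if replicates were separate animals, and the second array of each genotype carries the word "dup", so the p-values reflect array-to-array spread that could be technical only.

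PU.1, the protein of Spi1, is an ETS-domain factor that opens the enhancers of macrophage genes, and C/EBP proteins bind beside it. PPARγ, the lipid-activated receptor encoded by Pparg, shares many of its macrophage binding sites with PU.1, and in fat cell differentiation C/EBPβ and C/EBPδ come before Pparg while C/EBPα and PPARγ sustain each other. RUNX1 founds blood stem cells and acts upstream of Spi1, c-Maf belongs to the mature macrophage, KLF2 and KLF4 are zinc finger factors, of which KLF2 restrains inflammatory activation and KLF4 favours monocyte differentiation, and BCL6 is a repressor of inflammatory genes.

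None of the factors passed the test, and the arrays of KO and WT overlapped for Spi1 and Cebpa, the factors that define the lineage. In limma's fit across 6389 probe sets, with Benjamini-Hochberg adjusted p under 0.05, 0 of the 7 factors bright enough to be tested were called, against 3.55% of all tested probe sets, 1.02% higher and 2.54% lower in KO. Cebpd, with higher signals in KO, came nearest at adjusted p = 0.080, and Klf4 and Cebpb, with lower signals in KO, followed at 0.43 and 0.50. At an unadjusted p under 0.05, 3 of the 7 passed, against 9.47% of all tested probe sets, and 0 of the 7 did when each probe set's own spread was used, against 6.07%. The remaining 2 factors, Runx1 and Maf, lay below the signal filter (about 111 units) and did not pass in the fit without it. Signals below are intensity units, means are ± SD with n = 2, and each log2 difference is KO minus WT after 16 was added to the signals, which understates differences of dim probe sets.

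The promoters of Cebpb, Klf2 and Klf4 are shown because these were the 3 tested factors whose KO arrays both read below both WT arrays, as at 21.1% of all tested probe sets. Each run is the 250 bases before the annotated start, 5′ to 3′ on the gene's strand, from RefSeq (GRCm38.p6), with GGGCGG, the GC box bound by SP and KLF proteins, and TATAA, the TATA box core, in capitals on either strand. They cover chr2:167688665-167688914 (plus strand), chr8:72318812-72319061 (plus strand) and chr4:55532476-55532725 (minus strand).
Cebpb: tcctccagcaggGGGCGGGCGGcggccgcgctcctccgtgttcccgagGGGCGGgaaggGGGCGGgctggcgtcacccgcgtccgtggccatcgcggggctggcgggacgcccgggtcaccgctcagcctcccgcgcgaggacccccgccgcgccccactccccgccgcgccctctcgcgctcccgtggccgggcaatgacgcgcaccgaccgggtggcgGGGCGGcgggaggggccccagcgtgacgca
Klf2: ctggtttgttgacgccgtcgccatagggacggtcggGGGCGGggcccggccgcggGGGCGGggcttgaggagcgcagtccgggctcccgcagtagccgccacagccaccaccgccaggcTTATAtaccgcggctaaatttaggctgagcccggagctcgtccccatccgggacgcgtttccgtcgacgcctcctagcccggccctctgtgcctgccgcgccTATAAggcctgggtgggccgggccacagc
Klf4: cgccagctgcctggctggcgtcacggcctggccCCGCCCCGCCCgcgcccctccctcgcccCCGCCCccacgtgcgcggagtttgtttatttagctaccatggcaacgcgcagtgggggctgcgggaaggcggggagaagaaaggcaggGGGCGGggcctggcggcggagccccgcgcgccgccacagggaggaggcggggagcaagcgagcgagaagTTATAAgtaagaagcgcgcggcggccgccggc

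All 3 promoters are rich in G and C, at 81.6% for Cebpb, 71.2% for Klf2 and 74.0% for Klf4, against a median of 52.4% over 32851 such windows. GGGCGG occurs 5 times before Cebpb, 2 times before Klf2 and 4 times before Klf4, and 32.74% of all windows hold it. The first 2 copies overlap in Cebpb and in Klf4. Among the factors whose sequence is not shown, Cebpa and Runx1 have 0 copies and Bcl6 has 1. TATAA occurs in the windows of Klf2 and Klf4, in each once between 25 and 31 bases before the start on the gene's own strand, and in 22.78% of all windows. In Klf4 that match overlaps one on the other strand. Cebpa has 1 TATAA, and Runx1 and Bcl6 have 0. The letters AGGTCA, the single repeat of a PPAR response element, are in none of the windows of the 6 factors in the table (Cebpa, Cebpb, Runx1, Klf2, Klf4 and Bcl6), where 14.02% of all windows hold them, and the full element, a direct repeat with a spacer of 1 base, is in 0.03% of all windows and in none of theirs. These matches describe letters only, and no binding was measured.

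The targeted gene and the cell identity were read first. Pparg read 43.0 and 40.6 on the KO arrays, against 61.1 and 73.1 on the WT arrays, all below the median of 12 control probe sets for the opposite strand on their array, so no fold is given. Both KO arrays were below both WT arrays (adjusted p = 0.00012 in the fit without the signal filter, and 0.14 without WT replicate 2). Whether this dim probe set lies in the deleted part is not stated. Of 12 macrophage markers with values, 11 were tested, and their summed signal was 21097 and 24067 in KO, against 21759 and 22374 in WT. Mrc1, the mannose receptor, was higher and Mertk, a receptor for dying cells, lower in KO, and the other 9 did not pass. Mrc1 entered the test only through its KO arrays, because its WT signals lay below the signal filter. Markers of B cells (6 tested), T and NK cells (2), mast cells (2), eosinophils (1), dendritic cells (3) and endothelium (1) had 0 calls, also at an unadjusted p under 0.05. At that threshold 3 of 11 macrophage, 2 of 5 neutrophil and 4 of 5 fibroblast and mesothelial markers passed, against 9.46% of all tested genes. Neutrophil markers summed to 1791 and 1752 in KO, against 1874 and 1965 in WT, with S100a8 lower among 5 tested. Without S100a8 they summed to 1460.5 and 1381.5 in KO, against 1357.5 and 1423 in WT, and Mmp9, a gelatinase gene named here after its values were seen, had a log2 difference of 0.33 (adjusted p = 0.063). Fibroblast and mesothelial markers summed to 2575 and 2915 in KO, against 2069 and 2034.5 in WT, with all 5 tested means higher in KO and Dcn called, and without Dcn to 1630 and 1855 in KO, against 1453 and 1474 in WT. Fewer cells of a type and less RNA per cell cannot be told apart in these samples.

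**Figure D1:**
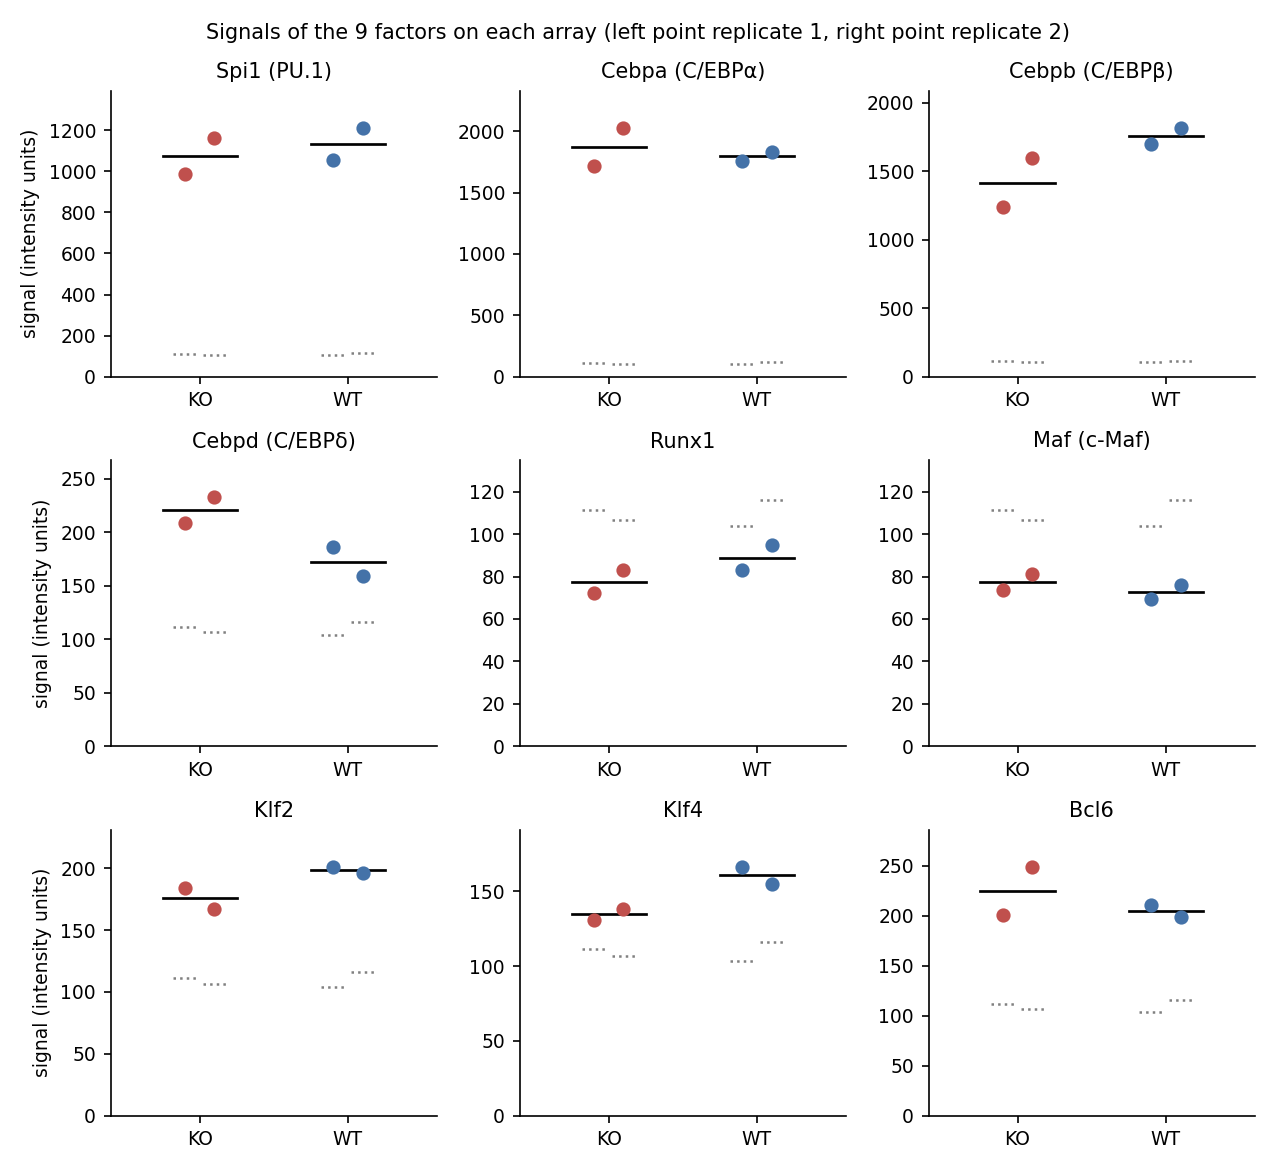
Signals in intensity units of the 9 factors (y axes start at 0 and differ), with KO arrays in red and WT arrays in blue, means as black bars and the median of 12 opposite-strand control probe sets on each array as dotted grey lines. Spi1, Cebpa, Maf and Bcl6 overlap between genotypes, and Runx1 and Maf lie below the control lines on all 4 arrays.

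Spi1, a master factor of macrophages, was bright in both genotypes. It read 987 and 1163 on the KO arrays, against 1055 and 1212 on the WT arrays. The groups overlapped, with the replicate 1 arrays low and the replicate 2 arrays high in both genotypes. The log2 difference was -0.08 (SE 0.16, adjusted p = 0.9997), and its 95% interval ran from -0.38 to 0.23. Without KO replicate 1 it turned to 0.04 and without WT replicate 2 to 0.02.

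Cebpa, the C/EBP factor that commits progenitors to the granulocyte and monocyte fates, was also bright. It read 1720 and 2028 on the KO arrays, against 1761 and 1833 on the WT arrays. Both WT values lay between the KO values. Its log2 difference was 0.06 (SE 0.16, 95% interval -0.26 to 0.37, adjusted p = 0.9997), and it turned to -0.06 without KO replicate 2.

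Cebpb, which in macrophages serves inflammatory and alternative activation genes, had lower signals in KO that did not pass. It read 1235 and 1595 on the KO arrays, a mean of 1414.5 ± 254.5, against 1695 and 1816 on the WT arrays, a mean of 1755 ± 85.4. Both KO arrays were below both WT arrays, but the KO arrays lay farther from each other (0.37 on the log2 scale) than the genotype means did. On the log2 scale KO minus WT was -0.32 (SE 0.16, 95% interval -0.63 to -0.01, adjusted p = 0.50). It was -0.14 without KO replicate 1 and -0.50 without KO replicate 2, where it passed (adjusted p = 0.0066, in a fit that called 5.12% of all probe sets).

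Cebpd, an acute-phase member of the family that is induced quickly by inflammatory signals, went the other way. It read 209 and 233 on the KO arrays, a mean of 221 ± 16.8, against 186 and 159 on the WT arrays, a mean of 173 ± 19.2. Both KO arrays were above both WT arrays, as at 11.3% of all tested probe sets. The genotype gap exceeded the gap between replicates in either genotype, but how common this is among all probe sets was not counted. On the log2 scale KO minus WT was 0.33 (SE 0.11, 95% interval 0.11 to 0.55, adjusted p = 0.080), a fold of 1.26. It ranged from 0.23 without WT replicate 2 to 0.43 without WT replicate 1, and passed without KO replicate 1 (adjusted p = 0.020, in a fit that called 3.93%). The fibroblast and mesothelial markers given above were higher in the same arrays, and their part in this difference was not tested. Whether Cebpb and Cebpd differ from each other in response was not tested either.

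Runx1 and Maf were too dim to be followed. Runx1 read 72.2 and 83.1 on the KO arrays, against 83.3 and 94.7 on the WT arrays, so that the higher KO value lay just under the lower WT value. Maf read 73.9 and 81.1 on the KO arrays, against 69.3 and 75.8 on the WT arrays, and the groups overlapped. Both genes lay below the opposite-strand control median on all 4 arrays, so no fold is given, and adjusted p was 0.74 for Runx1 and 0.99 for Maf in the fit without the filter. Neither passed, and these signals give no level to compare.

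Neither KLF factor passed. Klf2, which holds myeloid cells and T cells in a quiet state, read 184 and 167 on the KO arrays, against 201 and 196 on the WT arrays. The log2 difference was -0.16 (SE 0.11, 95% interval -0.38 to 0.05, adjusted p = 0.86). Klf4, which promotes monocyte differentiation and alternative activation in mice, read 131 and 138.5 on the KO arrays, against 166.5 and 155 on the WT arrays. That is a log2 difference of -0.23 (SE 0.11, 95% interval -0.45 to -0.02, adjusted p = 0.43), a fold of 1.17 toward WT. For both genes the KO arrays lay below the WT arrays, as at 21.1% of all tested probe sets, and the genotype gap exceeded either gap between replicates. The share of all tested probe sets with such a gap was not counted. All 4 Klf4 signals were above the opposite-strand control median, but 1 of them was above the highest such control, so Klf4 was near background. Endothelial cells also make Klf2 and Klf4. Of 5 endothelial markers with values, 1 was bright enough to be tested, and 3 lay below the opposite-strand control median on all arrays. The summed signal of the 5 was 453 and 376 in KO, against 424 and 436 in WT, so that the KO arrays lay on either side of both WT arrays. With markers this dim the sum is mostly near background, and a part of endothelial cells in the Klf2 and Klf4 differences was not tested.

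Bcl6, the zinc finger repressor, read 201 and 249 on the KO arrays, against 211 and 199 on the WT arrays. KO replicate 2 stood above the other 3 arrays, and the groups overlapped. The log2 difference was 0.12 (SE 0.11, 95% interval -0.10 to 0.35, adjusted p = 0.9997), and it was 0.27 without KO replicate 1 and -0.02 without KO replicate 2.

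Over the 9 factors, 4 had higher and 5 had lower means in KO, counting Maf as higher and Runx1 as lower although both were at background. The arrays of the genotypes did not overlap for 4 of the 7 tested, against 32.4% of all tested probe sets. Those of Runx1 did not overlap either, but it lay below the signal filter, so this share is no background for it. Of the 7 tested, 3 had KO arrays below both WT arrays, against 21.1% of all tested probe sets, and 1 had them above, against 11.3%. The median absolute log2 difference of the 7 was 0.16, against 0.075 over all tested probe sets, and the median signed difference was -0.08, against -0.02. With the spread pooled over probe sets of like brightness, the 95% intervals of the 7 tested lay within a factor of 1.46 upward and 1.55 downward in KO, and 4 of them spanned 0. With each probe set's own spread, on 2 residual degrees of freedom, all 7 spanned 0, and that of Cebpb reached from -1.13 to 0.49. The narrow intervals therefore rest on the pooled spread.

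**Figure D2:**
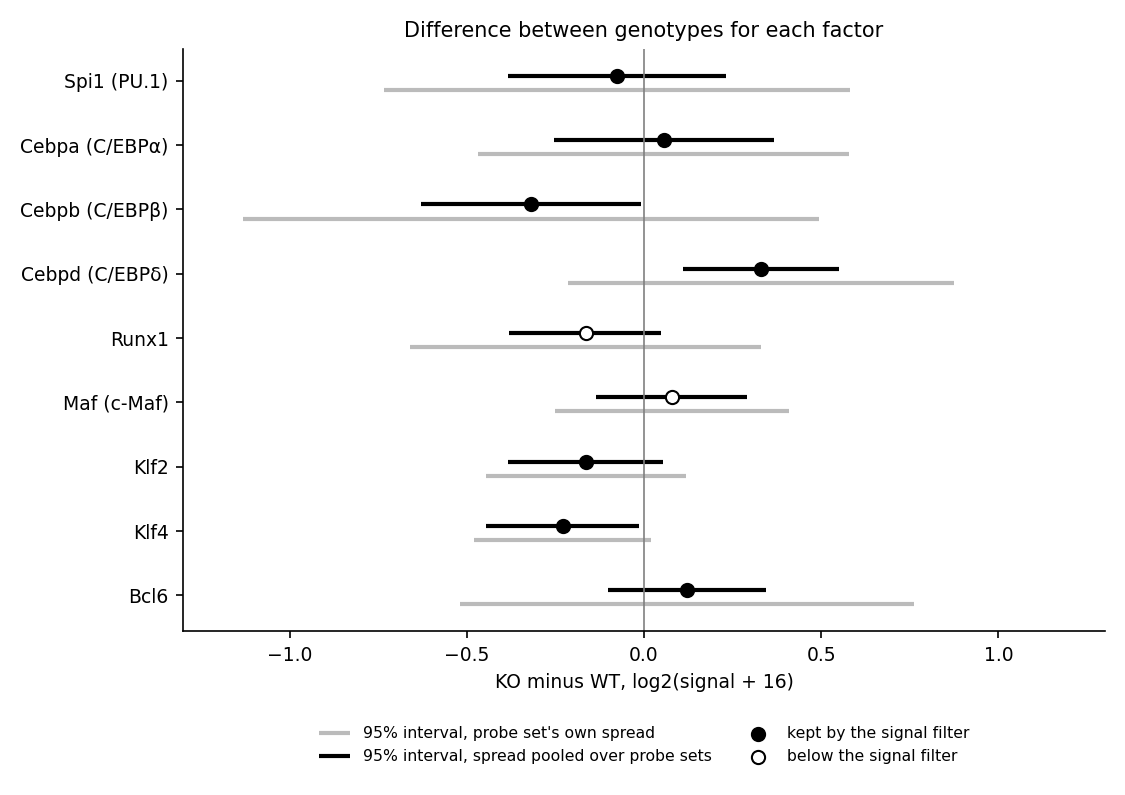
Log2 difference, KO minus WT, for each factor (points; open where the signal lay below the filter), with 95% intervals from the pooled spread in black and from the probe set's own spread in grey. With the pooled spread the intervals of Cebpb, Cebpd and Klf4 leave out 0, and with the own spread all 9 span 0.

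The replicate arrays of a genotype differed by an amount that depended on brightness, which touched the bright factors. Spi1, Cebpa and Cebpb lie in the top decile of signal, where the median gap between replicate 2 and replicate 1 was 0.21 in KO and 0.07 in WT, as log2 values. For Spi1 itself the gaps were 0.23 in KO and 0.20 in WT, for Cebpa 0.24 and 0.06, and for Cebpb 0.37 and 0.10. The KO gaps of Spi1 and Cebpa were thus near the median of probe sets of their brightness, and that of Cebpb was above it. Cebpd and Klf2 lie in decile 4, where the median KO gap was 0.04, and their own KO gaps were 0.15 and -0.13.

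**Figure D3:**
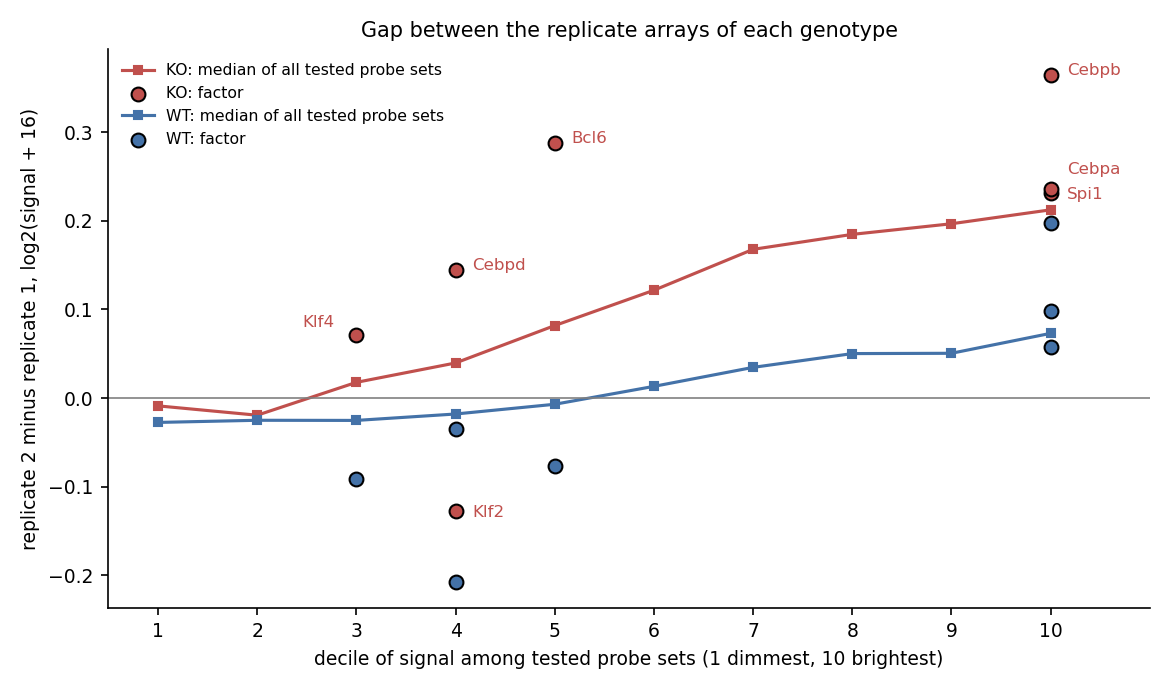
Replicate 2 minus replicate 1 on the log2(signal + 16) scale (y) against the decile of signal (x), for KO in red and WT in blue, with lines for the median of all tested probe sets and circles for the 7 tested factors, named beside their KO value. The KO line climbs to 0.21 in the brightest decile, Klf2 lies below it, and the other 6 factors lie above it, with Bcl6, Cebpb and Cebpd farthest away.

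Scalings that align the arrays at every brightness called Cebpb and Cebpd in opposite directions. After quantile normalization Cebpb had a log2 difference of -0.25 (adjusted p = 0.037) and Cebpd one of 0.36 (adjusted p = 0.031), in a fit that called 6.56% of all probe sets. Cyclic loess scaling, chosen after the shift was seen, gave -0.32 for Cebpb (adjusted p = 0.0049) and 0.36 for Cebpd (adjusted p = 0.032) and called 6.81% of all probe sets. Both genes kept their direction under all 15 alternatives and passed under 4 of them each. Klf2, Klf4 and the dim Runx1 and Maf also kept theirs wherever they gave a value, with 0 passes. Spi1, Cebpa and Bcl6 turned sign when single arrays were left out. Changes of filter, variance estimate or block leave the difference itself as it was. Leaving out 1 array or changing the pseudocount cannot turn it where the genotypes do not overlap, as for Cebpb, Cebpd, Klf2, Klf4 and Runx1. For these genes only the quantile, median and cyclic loess scalings could have turned it, so a kept direction is little evidence of a difference.

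**Figure D4:**
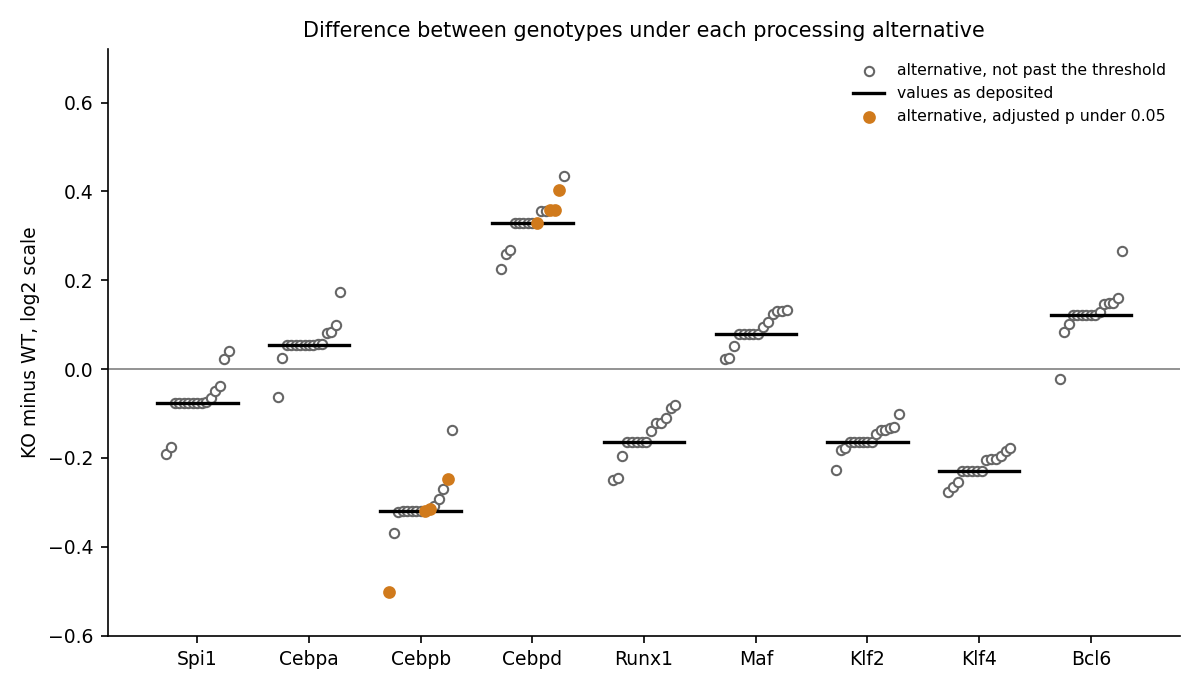
KO minus WT on the log2 scale (y) for each factor under the values as deposited (black bar) and under each processing alternative (circles, filled orange where adjusted p was under 0.05). Cebpb and Cebpd are the 2 factors with filled circles, 4 each, on opposite sides of 0.

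Among relatives of the factors, Klf13 passed. A list of 85 relatives, partners and other factors of myeloid cells had 60 genes with values and 34 tested, of which 1 fell, 0 rose and 33 did not pass, against 3.72% of 5002 tested genes called, 1.06% higher and 2.66% lower. The median log2 difference was -0.04, against -0.02 over all tested probe sets, and 23 of the 34 means were lower in KO. The gene that fell was Klf13, a KLF factor known in human T cells for driving the chemokine gene CCL5. It read 231.5 and 261 on the KO arrays, against 337 and 354 on the WT arrays, so the groups were well apart. The log2 difference was -0.46 (SE 0.12, adjusted p = 0.0075, or 0.78 with the probe set's own spread), a 1.38-fold fall. A dimmer Klf13 probe set gave -0.16 (adjusted p = 0.91), and the call was lost when either WT array or KO replicate 1 was left out (adjusted p = 0.44, 0.90 and 0.059).

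The brightest relatives did not pass. Id2, an inhibitor of helix-loop-helix factors, averaged 1623 ± 8.77 in KO and 1611 ± 168 in WT. Cbfb, the partner that stabilises RUNX1 on DNA, averaged 1113 ± 67.3 in KO and 1168 ± 116 in WT. Klf6 averaged 844.5 ± 106 in KO and 982 ± 16.1 in WT, and Nfe2l1, a stress factor that pairs with small Maf proteins, 711 ± 39.6 in KO and 853 ± 54.0 in WT. By family, 0 of 5 ETS factors, 0 of 3 C/EBP relatives, 0 of 5 Maf and CNC factors, 0 of 2 RUNX partners, 0 of 3 BCL6 relatives and 0 of 10 other factors passed. At an unadjusted p under 0.05 these groups had 1 C/EBP relative and 2 of the other factors, against 9.46% of all tested genes. Their median log2 differences ran from -0.14 for the BCL6 relatives to -0.005 for the other factors, and that of the 6 KLF relatives was -0.08.

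Among textbook targets of the factors, Arg1, Mrc1 and Hp passed. Of 61 listed targets, 50 had values and 35 were tested, of which 2 rose, 1 fell and 32 did not pass, against 1.06% higher and 2.66% lower over all tested genes. Their median log2 difference was -0.02. The risers were Arg1, the arginase gene driven by C/EBPβ, at 395 and 483 on the KO arrays against 258 and 206 on the WT arrays (adjusted p = 9.68e-10, or 0.11 without WT replicate 2), and Mrc1. Mrc1 read 174 and 205 on the KO arrays, against 93.0 and 94.8 on the WT arrays, where it was below the opposite-strand control median (adjusted p = 1.04e-13). Its WT signals were also below the signal filter of about 111 units, so Mrc1 was tested only through its KO arrays. Its count among the risers is therefore no support for a response of the targets. Hp, the haptoglobin gene that C/EBP factors drive in the acute phase, fell to 1155 and 1483 on the KO arrays, against 1843 and 1961 on the WT arrays. Its log2 difference was -0.53 (SE 0.16, adjusted p = 0.026), and the call was lost without WT replicate 1 or 2 (adjusted p = 1.00 for both), without KO replicate 1 (0.15) and after median centring (0.096). With each probe set's own spread none of these targets passed, at adjusted p = 0.81 for Arg1, 0.78 for Mrc1 and 0.865 for Hp. The small p-values above therefore rest on the pooled spread. Targets of C/EBP went both ways, with 1 higher, 1 lower and 5 not called.

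None of the 16 tested targets of PU.1 passed, and 3 had an unadjusted p under 0.05, against 9.46% of all tested genes, with a median of -0.03 and a range from -0.48 to 0.27. At the low end was Cybb, the oxidase subunit gene that depends on PU.1 in phagocytes, which read 2542 and 3137 on the KO arrays, against 3912 and 3966 on the WT arrays (adjusted p = 0.051); it was chosen after its values were seen. Other bright targets, of PU.1 or of C/EBP, did not pass either. Saa3, an acute-phase gene, averaged 8626.5 ± 738 in KO and 8595.5 ± 64.7 in WT. Lyz2, the macrophage lysozyme gene, averaged 7195 ± 458 in KO and 6939.5 ± 38.0 in WT. Cd68, a lysosomal glycoprotein gene, averaged 6583 ± 527 in KO and 6384 ± 41.9 in WT, and Tyrobp, which encodes the adaptor DAP12, 5222 ± 726.5 in KO and 4553 ± 205.5 in WT. The 3 tested targets of Maf, the C1q chains, did not pass, nor did the 4 of BCL6 repression (median -0.10) or the 1 of RUNX1. Of 4 tested targets of KLF2 and KLF4, Mrc1 was the 1 that passed, and it entered the test only through its KO arrays.

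**Figure D5:**
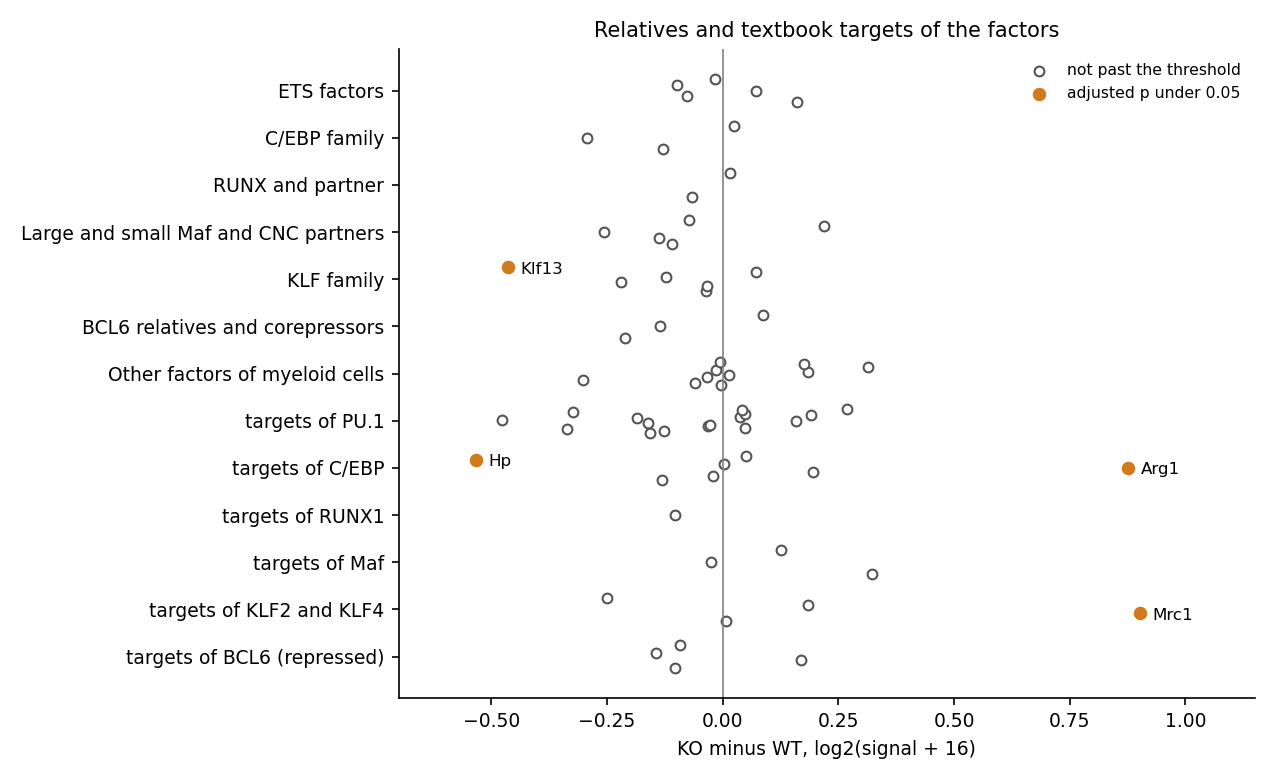
Log2 difference, KO minus WT, for each tested relative (upper 7 rows) and textbook target (lower 6 rows) of the factors, 1 point per gene, filled where adjusted p was under 0.05. Klf13 and Hp lie on the lower side in KO, Arg1 and Mrc1 on the higher side, and the other points were not called.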

How the data were processed

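The deposited table gives an intensity for each probe set on each array, and its values are linear. The authors' steps of probe summary and array scaling are not given in the sources used here. It has 12488 rows, of which 1780 were blank and 59 were controls. The 9 factors and the gene lists were chosen with earlier results of these data known. Array medians ran from 136.7 to 142.0 units, so values were used as deposited.

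Values were taken to log2(signal + 16), the 6389 probe sets whose mean exceeded the 40th percentile were kept, and limma 3.58.1 (R 4.3.3; lmFit, eBayes with trend, two-sided) tested KO against WT. Its prior degrees of freedom came out infinite, which means that the spread used for a probe set is that of the trend at its brightness. Intervals are normal 95% intervals. A listed gene was taken by its brightest kept probe set. The replicate numbers do not come with a stated pairing, and 2 pairs are too few to test one. The number of arrays limits the precision.

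By rule, named genes are the 9 factors, Pparg, and, of the relatives and the targets, the called genes and the 4 brightest that were not called. Called markers are named too, and Cybb, Mmp9, Lmo2, Egr2 and Ddit3 were chosen after their values were seen. On simulated arrays for this comparison, 6389 probe sets were tested and 182 of those were changed. There 100% of changes of 1 and 94.7% of changes of 0.5 on the log2 scale were found, with 8 false calls. The simulated noise was independent between arrays and held no replicate shift with brightness. In the real fit, bright Cybb at -0.48 was not called (adjusted p = 0.051) and Hp at -0.53 was (0.026). The simulated share for changes of 0.5 therefore does not carry over to the bright factors. Symbols come from the platform annotation, and RefSeq tables (GRCm38.p6) gave identifiers and promoters. Alternatives were quantile, median and cyclic loess scaling, other filters, pseudocounts of 1 and 64, other variance estimates, a replicate block and each array left out. Figures were drawn with matplotlib 3.10.9.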

Additional observations from a re-analysis of the deposited data

How the results depend on the processing

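Against 227 calls over all probe sets, quantile normalization gave 419, cyclic loess 435, the replicate block 480 and the fit without moderation 0, where 388 had an unadjusted p under 0.05, and leaving out 1 array gave 54 to 327. The share of calls higher in KO was 28.6% as deposited and 40.6% after quantile normalization. For the factors, 1 was called higher and 1 lower after quantile normalization, after cyclic loess and with the replicate block, and 0 to 1 each when 1 array was left out. In all, the factors had 132 values under the alternatives, of which 8 passed (Cebpb and Cebpd) and 4 turned sign when 1 array was left out, where Spi1 ran from -0.19 to 0.04, Cebpa from -0.063 to 0.17 and Bcl6 from -0.023 to 0.27. Called relatives numbered 2 after quantile normalization, 3 after cyclic loess, 2 without a filter, 4 with the replicate block, 0 without moderation and 0 to 2 with 1 array left out, against 1. Called targets numbered 9, 9, 5, 7, 0 and 1 to 6 in the same order, against 3.

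With the replicate number as a block, Cebpb had adjusted p = 0.041 and Cebpd adjusted p = 0.0056. Deviations of same-numbered arrays correlated at 0.42 over probe sets, but nothing in the labels pairs them. When 1 array is left out, the lone array of its genotype is assumed to vary like the other pair. Klf4 lies below the 60th percentile filter, as do Runx1 and Maf, which gave no value there. Dim signal limits Runx1, Maf and Pparg.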

Other observations

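Among the tested relatives, the widest differences apart from Klf13 were those of Lmo2, Egr2 and Ddit3, and none passed. These were chosen after their values were seen. Lmo2, a bridging protein of blood stem cell and erythroid factors, read 553 and 692 on the KO arrays, against 452.5 and 541 on the WT arrays (log2 difference 0.31, adjusted p = 0.40), and a second Lmo2 probe set read 0.36 (adjusted p = 0.21). Egr2, a zinc finger factor of macrophage differentiation, read 513 and 561 on the KO arrays, against 651 and 679.5 on the WT arrays (log2 difference -0.30, adjusted p = 0.45). Ddit3, the stress-induced C/EBP relative CHOP, read 364.5 and 456 on the KO arrays, against 490.5 and 516 on the WT arrays (log2 difference -0.29, adjusted p = 0.43). In each of these genes the arrays of the genotypes did not overlap, as at 32.4% of all tested probe sets.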
